A study of Mus musculus with 3 samples.

Results

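10 members of the Kruppel-like factor family, Klf2, Klf3, Klf4, Klf5, Klf6, Klf7, Klf10, Klf12, Klf13 and Klf15, were examined for peaks of the forkhead transcription factors Foxc1 and Foxc2. They were taken by name from a family of 17 genes in the RefSeq table, among 21887 protein-coding genes in all. The choice was made with earlier results of these data known. A peak was counted for a gene when its summit fell between the ends of the gene's RefSeq span or no more than 50 kb outside them. The data came from chromatin immunoprecipitation followed by sequencing (ChIP-seq) on kidney glomeruli of C57BL/6 mice aged 8 weeks, collected with magnetic beads. The groups were 1 library made with a Foxc1 antibody (D8A6, CST) and 1 made with a Foxc2 antibody (AF6989, R&D Systems), and the labels list 1 library of input DNA, which was not analysed here. The peak lists held 5213 Foxc1 and 2881 Foxc2 peaks, depth is unknown because they carry no read counts, and with 1 library per antibody no value has a spread between replicates. Glomeruli hold podocytes, mesangial cells and endothelium, so a peak cannot be placed in a cell type. RNA was not measured, and the tissue label could not be checked against marker genes.

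Kruppel-like factors are transcription factors with zinc fingers at the carboxyl end that bind GC-rich and CACCC sequences. Members differ in the partners recruited by the rest of the protein, and they fall into activators, repressors that bind the corepressor CtBP and repressors that bind Sin3. In the glomerulus Klf15 and Klf4 are known for maintaining podocyte differentiation, Klf6 for protecting podocyte mitochondria after injury, and Klf2 for the response of endothelium to blood flow.

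Peaks of both antibodies covered much of the 250 bases before the annotated starts of Klf4 and Klf7, and a Foxc2 peak covered much of those before the Klf3 start. At Klf13 a Foxc2 peak lay over the start itself and mostly inside the gene. The bases before the starts of Klf4, Klf7 and Klf3 are therefore shown as RefSeq gives them for GRCm38.p6, the assembly also called mm10. They run 5′ to 3′ along the gene's own strand and end at the base before the start. Capitals mark every match, on either strand, to the forkhead word GTAAACA, its variant GTAAATA, a further variant ATAAACA, the CACCC-type letters CCACACCC or CCCCACCC, and the GC box letters GGGCGG. The Klf4 bases lie at chr4:55532476-55532725 (minus strand), the Klf7 bases at chr1:64121390-64121639 (minus strand) and the Klf3 bases at chr5:64803271-64803520 (plus strand).
Klf4: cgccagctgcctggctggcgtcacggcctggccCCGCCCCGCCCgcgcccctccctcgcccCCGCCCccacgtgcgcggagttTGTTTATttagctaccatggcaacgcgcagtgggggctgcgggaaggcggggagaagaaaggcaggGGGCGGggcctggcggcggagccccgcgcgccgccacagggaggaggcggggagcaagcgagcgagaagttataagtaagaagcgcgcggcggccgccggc
Klf7: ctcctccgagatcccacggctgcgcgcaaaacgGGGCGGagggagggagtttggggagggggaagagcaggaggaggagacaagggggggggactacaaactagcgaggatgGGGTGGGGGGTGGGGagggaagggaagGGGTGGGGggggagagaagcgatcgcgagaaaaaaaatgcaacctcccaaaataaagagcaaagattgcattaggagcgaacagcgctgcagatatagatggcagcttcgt
Klf3: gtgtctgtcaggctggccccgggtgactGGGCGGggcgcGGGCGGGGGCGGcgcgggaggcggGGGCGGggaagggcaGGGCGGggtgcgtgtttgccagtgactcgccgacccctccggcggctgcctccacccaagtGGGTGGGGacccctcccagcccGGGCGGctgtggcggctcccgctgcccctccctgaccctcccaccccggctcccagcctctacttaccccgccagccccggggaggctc

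Foxc1 summits were found at 9 of the 10 genes and Foxc2 summits at 5, against 29.3% and 23.2% of all protein-coding genes. Both antibodies had summits at Klf3, Klf4, Klf7 and Klf13, which makes 4 genes, against 12.5% of all genes. Klf2, Klf5, Klf6, Klf12 and Klf15 had Foxc1 summits without a Foxc2 summit, and Klf10 had the reverse. A summit of either antibody was found at all 10, against 39.9% of all genes. The 10 had been chosen with earlier results of these data known, and the 6 family members outside the list, other than Klf9, had no summit of either antibody. The list and its peaks are therefore not independent, and nothing is read from these counts. Over the 17 Klf genes together, Foxc1 reached 10 (58.8%) and Foxc2 reached 6 (35.3%). This difference from all genes was not tested.

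**Figure D1:**
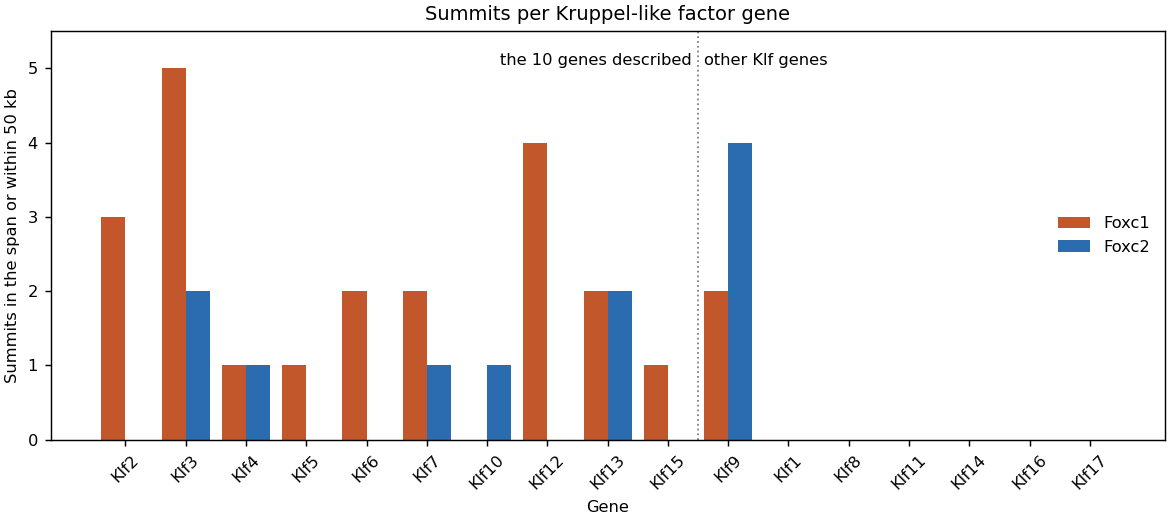
Bars give the number of summits in each gene's span or within 50 kb of it, Foxc1 left and Foxc2 right, for the 10 genes described (left of the dotted line) and the 7 other Klf genes. Klf3 carried the most Foxc1 summits, 5, and Klf9 the most Foxc2 summits, 4, while Klf1, Klf8, Klf11, Klf14, Klf16 and Klf17 had none.

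The 10 genes carried 21 Foxc1 and 7 Foxc2 peaks, and 6 of them had 2 or more Foxc1 summits, against 8.95% of all genes. Of the Foxc1 summits 12 lay inside the gene (57.1%), against 56.4% of the whole Foxc1 list inside some protein-coding gene. Of the Foxc2 summits 5 did (71.4%), against 66.3% of the whole Foxc2 list. Within 1 kb of an end or annotated start of their own gene lay 3 of the 21 Foxc1 summits (14.3%) and 5 of the 7 Foxc2 summits (71.4%). Over the whole lists, 12.3% and 60.6% of summits lay so near an end or start of any protein-coding gene. These shares are not like for like, because the family's summits were set against their own gene and the lists against any gene. The family's peaks also lie within 50 kb of a gene by the counting rule, which the lists need not. No difference was tested. Counted as genes, Foxc1 summits lay so near an end or start at 3 of 10 and Foxc2 summits at 4 of 10, against 3.26% and 8.44% of all genes. The list of 10 is not independent of its peaks. Nothing is therefore read from these counts of genes, nor from the count with 2 or more Foxc1 summits.

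**Figure D2:**
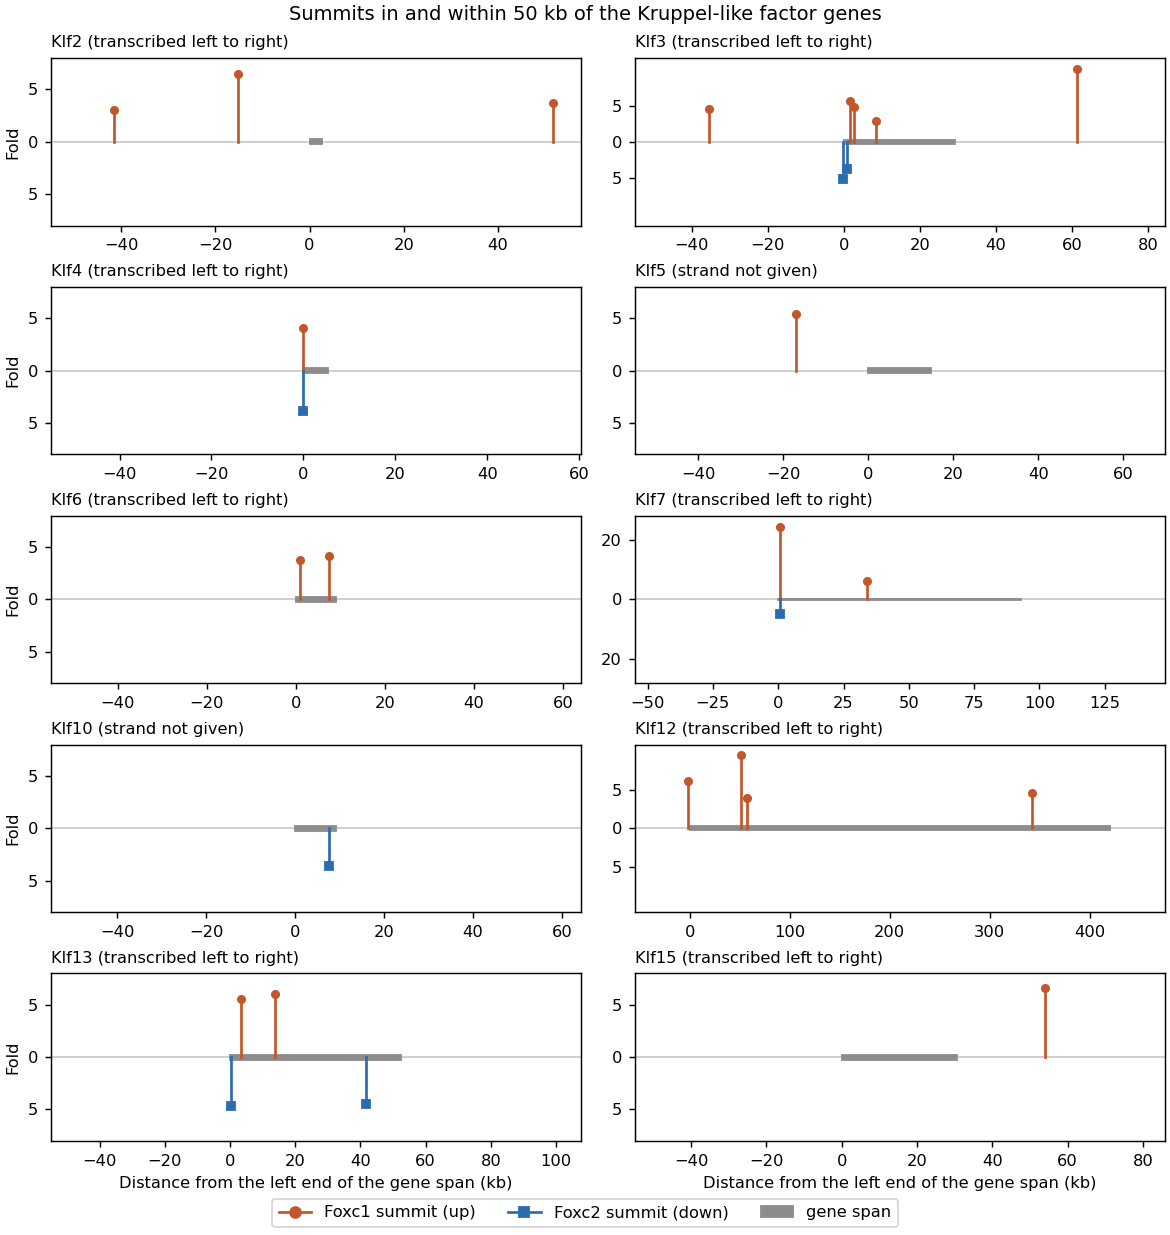
Each panel shows 1 gene as a grey bar to scale, with distance in kb from the left end of its span on the horizontal axis and 50 kb on either side. Genes of known strand are turned so that transcription runs left to right. Lines mark summits, Foxc1 upward and Foxc2 downward, with their length giving the fold enrichment. Both summits of Klf4 lie at its upstream end, those of Klf2, Klf5 and Klf15 lie outside the gene, and those of Klf12 are spread along and just beyond a span of 420 kb.

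Peak height here is the authors' deposited fold enrichment of the summit over local background, and it was ranked within each list only. The family's Foxc1 folds ran from 2.85 to 24.4 with a median of 5.38, against a median of 4.90 in the whole list (quartiles 4.11 and 6.64). Its Foxc2 folds ran from 3.61 to 5.10 with a median of 4.47, against 3.97 in the whole list (quartiles 3.57 and 4.65). The highest rank was that of the Foxc1 peak at the Klf7 start, in the top 1.17% of its list, followed by Foxc1 peaks of Klf3 and Klf12 in the top 10.4 and 11.9%. Above the median of its list lay 11 of the 21 Foxc1 peaks and 4 of the 7 Foxc2 peaks. Median peak widths were 337 bp for Foxc1 and 523 bp for Foxc2, against 332 and 327 bp over the whole lists.

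**Figure D3:**
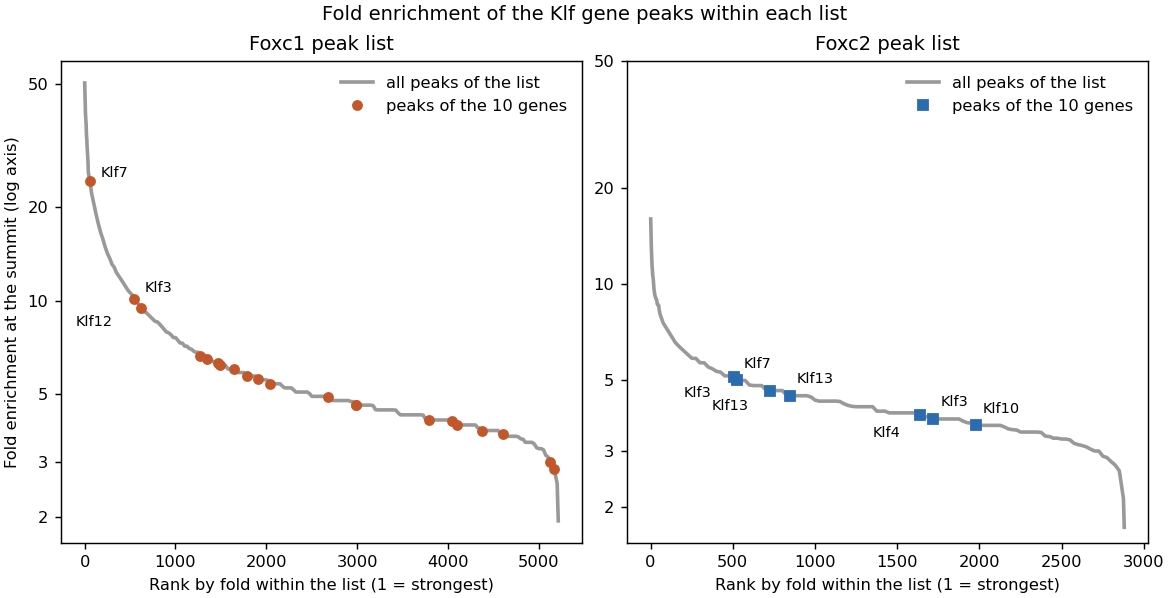
The grey curves give the fold enrichment (log axis) of all peaks of the Foxc1 list (left) and the Foxc2 list (right) by rank, and the points are the peaks of the 10 Klf genes. The Klf7 peak of fold 24.4 ranks 61st of 5213 in the Foxc1 list, while the Foxc2 peaks of the family rank between 507 and 1978 of 2881.

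Among the activators, Klf7, a factor known for axon growth in neurons (chromosome 1, 64029448 to 64122345), held the strongest peak of the family. This Foxc1 peak (64121417 to 64122051) had a fold of 24.4 and ranked 61 of 5213 in its list. Its summit lay 0.293 kb before the annotated start, and 0.663 kb inside the end of the gene span, which reaches 956 bp beyond that start. The Foxc2 peak (64121338 to 64122079) had a fold of 4.99, ranked 523 of 2881, and covered the whole 635 bp of the Foxc1 peak, with summits 24 bp apart. A second Foxc1 peak of fold 6.29 lay 32.9 kb into the gene and had no Foxc2 peak over it. The nearest other protein-coding gene lay 260 kb away, so these peaks were counted for Klf7 alone.

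At Klf4, one of the factors that reprogram cells to pluripotency and a differentiation factor of epithelia (chromosome 4, 55527137 to 55532475), a single peak of each antibody lay just before the start, and the Foxc1 peak reached over it. The Foxc1 peak (55532455 to 55532956) had a fold of 4.09 and the Foxc2 peak (55532478 to 55533198) a fold of 3.89. They shared 479 bp, and their summits lay 182 and 170 bp before the start, 12 bp apart. Within their lists they ranked 4040 of 5213 and 1638 of 2881, so both were below the middle of the list. Klf4 and Klf7 were the 2 genes of the 10 with overlapping Foxc1 and Foxc2 peaks, against 3.39% of all genes. The 10 were chosen with earlier results of these data known, so nothing is read from this share. Of the family's peaks, 2 of 21 Foxc1 peaks (9.52%) and 2 of 7 Foxc2 peaks (28.6%) were overlapped, against 8.20% and 14.8% over the whole lists.

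The other activators had Foxc1 peaks and no Foxc2 peak. Klf2, the flow-responsive factor of endothelium (chromosome 8, 72319062 to 72321654), had 3, all outside the gene. The strongest, of fold 6.49 and 771 bp wide, the widest of the family, lay 15.3 kb before the start and nearer to Klf2 than to any other protein-coding gene. Those of fold 3.00 and 3.70 lay 41.5 kb before the start and 49.2 kb past the gene's end. Each was nearer to another gene, Ap1m1 for the first and Eps15l1, inside which it lay, for the second.

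Klf6, a gene induced early after tissue injury (chromosome 13, 5861489 to 5870393), had Foxc1 peaks of fold 3.80 and 4.11 inside the gene, 0.971 and 7.52 kb past its start. They ranked 4378 and 3788 of 5213, in the weaker part of the list. Klf5, a factor of proliferating epithelia (chromosome 14, 99298691 to 99313412), had 1 Foxc1 peak of fold 5.38, at 17.1 kb beyond the end of lower coordinate. The nearest Foxc2 summits to the peaks of Klf2, Klf5 and Klf6 were 895, 182 and 2320 kb away.

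**Figure D4:**
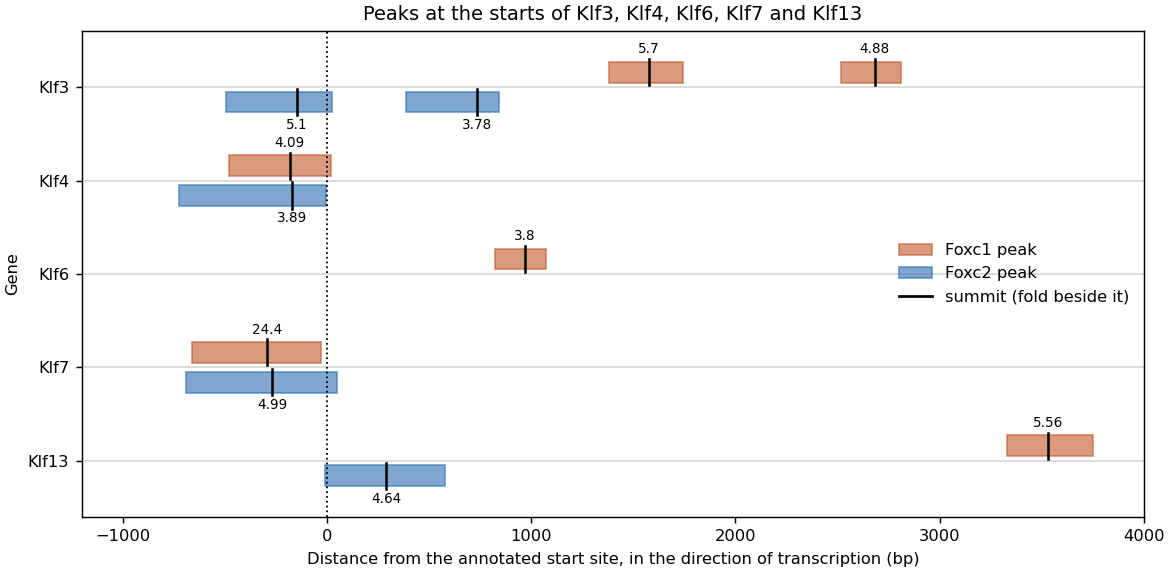
Coloured bars are Foxc1 peaks (upper) and Foxc2 peaks (lower) by distance in bp from the annotated start, along the direction of transcription, and black ticks are summits with their fold. At Klf4 and Klf7 the summits of both antibodies lie within 12 and 24 bp of each other before the start, whereas at Klf3 and Klf13 the Foxc1 peaks lie further into the gene than the Foxc2 peaks near the start.

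Of the CtBP-binding repressors, Klf3, a repressor known from erythroid and fat cells (chromosome 5, 64803521 to 64832901), had the most peaks of the 10, 5 of Foxc1 and 2 of Foxc2. Over all genes, 0.489% had 5 or more Foxc1 summits and 6.75% had 2 or more Foxc2 summits, although longer genes can collect more. Klf3 is the gene with the most peaks in a list that is not independent of its peaks, so nothing is read from these shares. Foxc1 peaks of fold 5.70 and 4.88 had summits 1.58 and 2.68 kb after the start. The Foxc2 peaks, of fold 5.10 and 3.78, lay closer to it, with summits 0.146 kb before and 0.733 kb after the start. The nearest Foxc1 and Foxc2 summits of this group were 844 bp apart, and no Foxc1 peak of Klf3 was overlapped by a Foxc2 peak. A fold of 2.85 at 8.48 kb after the start belonged to a weak Foxc1 peak, ranked 5169 of 5213 with a minus log10 q of 1.80.

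The strongest Foxc1 peak of Klf3, of fold 10.1 and ranked 544 of 5213, lay 32.0 kb past the gene's end, with no other protein-coding gene in reach. A further Foxc1 peak of fold 4.59 lay 35.5 kb before the start. The predicted gene Gm38457 overlaps the start of Klf3 and contained the summits of 2 Foxc1 and both Foxc2 peaks. It was also nearer than Klf3 to the peak of fold 4.59, at 34.3 kb, so none of these peaks can be given to Klf3 alone.

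Klf12, a repressor first described at the AP-2alpha gene, has the longest span of the 10, 420 kb on chromosome 14 (99866181 to 100285891). It had 4 Foxc1 peaks and no Foxc2 peak, and 1.14% of all genes had 4 or more Foxc1 summits. Nothing is read from this share, because the median span of all genes is 17.2 kb and longer genes can collect more. The list is also not independent of its peaks. The strongest Foxc1 peak of Klf12 had a fold of 9.49, ranked 620 of 5213, and lay 50.9 kb inside the gene from its upstream end. Close to it, at 56.9 kb from that end, was a Foxc1 peak of fold 3.97. Another, of fold 6.17, lay 1.61 kb beyond the upstream end, and the last, of fold 4.59, was 77.2 kb from the downstream end. The annotated start used here lies 136095 bp inside the span, and none of the 4 summits was within 79 kb of it.

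Of the Sin3-binding repressors, Klf13, known for activating a chemokine gene in T cells (chromosome 7, 63886351 to 63938915), had 2 peaks of each antibody, all inside the gene. The Foxc1 peaks, of fold 5.56 and 6.00, lay 3.53 and 13.8 kb past the start. The Foxc2 peaks, of fold 4.64 and 4.47, lay 0.289 and 41.8 kb past it. The closest Foxc1 and Foxc2 summits were 3.24 kb apart, so Klf13, like Klf3, carried both antibodies without an overlap. Klf10, a gene induced early by TGF-beta (chromosome 15, 38291464 to 38300711), had 1 Foxc2 peak of fold 3.61, the weakest of the family's Foxc2 peaks. It lay 1.56 kb inside the end of higher coordinate, and the nearest Foxc1 summit to the gene was 157 kb away.

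Klf15, a glucocorticoid-induced factor of podocytes (chromosome 6, 90461043 to 90491803), had 1 Foxc1 peak of fold 6.64 and no Foxc2 peak. It ranked 1273 of 5213 and lay 23.3 kb past the gene's end, 52.5 kb from the start. No peak covered the Klf15 promoter. The nearest Foxc2 summit to the gene, of fold 3.95, was 91.5 kb away and so outside the reach. The 50 kb limit itself stood between a Foxc1 summit of Klf2 at 49.2 kb, which was counted, and a Foxc2 summit of fold 4.30 at 50.5 kb from Klf7, which was not.

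By role, the 5 activators carried 9 Foxc1 and 2 Foxc2 peaks, and the 2 CtBP-binding repressors 9 and 2. The 2 Sin3-binding repressors carried 2 and 3, and Klf15 carried 1 and 0. The groups are too small, and their spans too unlike, for a comparison. Of the 28 peaks, 10 Foxc1 and 3 Foxc2 peaks had no other protein-coding gene within 50 kb. Another gene was nearer for 3 Foxc1 peaks and 1 Foxc2 peak.

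RefSeq promoters, from 250 bases before to 50 after the start, were matched for 8 of the 10 genes, and Klf5 and Klf10 are named only. GC content in the 8 ran from 45.7% at Klf12 to 76.7% at Klf3 with a median of 70.7%, against 52.7% over 32851 promoters. The Klf12 window stands at an annotated start 136095 bp inside the span and not at the gene's upstream end. The letters GGGCGG stood in 7 of the 8, against 35.7% of all promoters, with Klf12 the exception. The part of GC content in this difference was not tested, and a gene can count more than once among all promoters. Promoters reached by a Foxc2 peak had GC contents of 76.7% (Klf3), 74.3% (Klf4), 58.3% (Klf7) and 72.0% (Klf13, where the peak covered 61 of 300 bases). Those without had 69.3% (Klf2), 63.0% (Klf6), 45.7% (Klf12) and 73.3% (Klf15), so the values overlapped.

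Klf4 was the only one of the 8 promoters with forkhead letters. The match, ATAAACA on the strand opposite to the printed one, covers bases 84 to 90 of the run shown for Klf4, which is 167 to 161 bases before the start. The Foxc1 summit lay 15 bases and the Foxc2 summit 3 bases from this match. GC boxes stood close by as well, the nearest 2 bases from the Foxc1 summit. Any of the 3 forkhead words occurred in 10.6% of all promoters, in 34.3% of the 367 covered by a Foxc1 peak and in 5.78% of the 1471 covered by a Foxc2 peak. GGGCGG occurred in 58.9% and 83.7% of these. The median GC content was 59.7% for promoters with a Foxc1 peak over them and 69.0% for those with a Foxc2 peak. It was taken over the whole promoter window and not over the peak. The part of base composition in these shares was not tested.

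The Klf7 promoter, 223 of whose 300 bases were covered by the Foxc1 peak and all by the Foxc2 peak, held none of the forkhead words. It held 3 matches to CCCCACCC, printed as GGGTGGGG from the opposite strand and overlapping or lying close together, and 1 GC box. Both summits of Klf7 lay upstream of the printed bases, 293 and 269 bases before the start. The Klf3 promoter had 6 GC boxes and 1 CCCCACCC match, and its Foxc2 summit fell on base 105 of the run shown for Klf3. CCCCACCC occurred in 9.99% of all promoters and CCACACCC, found among the 8 at Klf12, in 3.56%. Such matches describe the letters of these windows and do not show a binding site.

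Genes that work with the family were looked at by the same rule. The Sp genes encode the closest relatives of the Kruppel-like factors, and Foxc1 reached 7 of 9 (77.8%) and Foxc2 reached 6 of 9 (66.7%), against 29.3% and 23.2% of all genes. Sp6 had 3 Foxc1 and 2 Foxc2 summits, and Sp1 and Sp2 had 2 of each. Neighbours shared them: both Foxc1 and both Foxc2 summits of Sp2 were also counted for Sp6, and those of Sp1 for Sp7. The shares of Sp genes thus count some summits more than once, and their difference from all genes was not tested. Of 12 cofactors and ubiquitin ligases of Kruppel-like factors, Foxc1 summits stood at 3 and Foxc2 summits at 4, which is 25% and 33.3% against 29.3% and 23.2% of all genes. Each had 1, as at Crebbp, an acetyltransferase (Foxc1, fold 4.90), Ctbp1, a corepressor (Foxc2, fold 3.78), and Hdac2, a deacetylase (Foxc1, fold 3.32).

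Of 11 genes known to respond to Kruppel-like factors in kidney or vessel, Foxc1 summits stood at 7 (63.6%) and Foxc2 summits at 6 (54.5%), against 29.3% and 23.2% of all genes. Synpo, which encodes the podocyte actin-binding protein synaptopodin, had 6 and 3. Smad7, an inhibitor of TGF-beta signalling, had 3 of each. Several of these are podocyte genes whose peaks were known when the list was made, so their count is no independent evidence. Klf9, a glucocorticoid-responsive Sin3-binding member outside the 10, had 2 Foxc1 and 4 Foxc2 summits.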

How the data were processed

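Per the submitters' processing notes, Bowtie2 and MACS2 were used with the mm10 build. Settings, the control of each list and any pooling of animals are not given in those notes. The deposited lists give the authors' fold enrichment per peak (a ratio to local background) and the deposited −log10 p-value and −log10 q-value. Every deposited q-value was under 0.05. The deposited score column was not used.

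Summits were taken as the 0-based peak start plus the summit offset, plus 1. Gene spans were those of the 21887 protein-coding genes that RefSeq GRCm38.p6 places on the autosomes and sex chromosomes, and 5207 Foxc1 and 2878 Foxc2 peaks lay on them. Start sites and strands came from the RefSeq promoter table. Overlap was counted from 1 bp. Counting used Python 3.11.15, pandas 2.3.3 and numpy 2.4.6, and was tested on simulated data. No test was run, because each antibody has 1 library. Clopper-Pearson 95% intervals (exact, for counting error alone) were 28.7 to 29.9% and 22.6 to 23.7% for the shares of all genes with a Foxc1 and a Foxc2 summit. All 10 genes and all their peaks were named, with up to 3 genes of each further list by number of peaks. The values of 1 gene of that rule are not reported here. The genes and lists were chosen with earlier results of these data known. Exons were not used here, nor was a genome sequence, so motif searches covered promoters only.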

Additional observations from a re-analysis of the deposited data

How the results depend on the processing

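With summits inside the gene span alone, 5 of the 10 genes had a Foxc1 summit, with 12 Foxc1 peaks, of which 1 was overlapped by a Foxc2 peak, and 3 Foxc2 summits lay within 1 kb of an end or start. With peaks of fold 5 or more alone, 11 Foxc1 peaks and 1 Foxc2 peak remained. Then 1 gene had a Foxc2 summit and 1 had both, 0 Foxc1 peaks were overlapped, and 1 summit of each antibody lay within 1 kb of an end or start. With the 2878 strongest Foxc1 peaks, 12 belonged to the family, 1 was overlapped and 1 lay within 1 kb of an end or start.

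The share of all genes with a Foxc1 summit was 9.53% (span alone), 15.2% (10 kb), 42.6% (100 kb), 14% (nearest gene), 27.2% (q under 1e-05), 16.9% (fold 5 or more), 18.9% (strongest Foxc1 peaks) and 31.8% (genes with spans in the range of the 10). The share with a Foxc2 summit was 7.58%, 12.7%, 33.6%, 10.1%, 11.5% and 3.90% in the same order up to the fold minimum, and 25.5% for genes with spans in that range. These settings change the reach, the peaks kept, the assignment or the genes counted.

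The other 45 recomputed values stayed within 1.5 times the reported counts, or inside the interval of a share. These include both overlapped peaks with 50% of both peaks shared or with summits within 200 bp. They also include Foxc1 counts that stand at the 1.5 limit itself. With a 10 kb reach, 6 of the 10 genes had a Foxc1 summit, with 14 Foxc1 peaks, and Klf2, Klf5 and Klf15 had no peak of either antibody. Klf10, with its only peak, dropped out at q under 1e-05. No paired analysis was possible because each antibody has 1 library. Depth is unknown, so a gene without a peak is not shown to lack a weaker site.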

Other observations

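Neighbouring genes of the family differ in distance. Klf4, Klf6, Klf7, Klf10 and Klf12 had no other protein-coding gene within 50 kb, and the nearest to Klf6 was 678 kb away, whereas Gm38457 overlaps Klf3 and E030018B13Rik overlaps Klf13. Outside the 50 kb reach, a Foxc1 peak of fold 11.2 lay 56.7 kb from Klf6 and ranked 439 of 5213, above both peaks counted for that gene. A Foxc1 peak of fold 16.5, ranked 178, was the nearest to Klf10, at 157 kb.

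At Klf9, Foxc1 and Foxc2 peaks overlapped at 2 places, 6.18 and 0.082 kb before the start by the Foxc1 summit. Its promoter held the forkhead letters GTAAACA 100 to 94 bases before the start, 12 bases from the Foxc1 summit and 49 from the Foxc2 summit. Among the 9 Klf promoters searched, those of Klf9 and Klf4 had peaks of both antibodies and forkhead letters, while that of Klf7 had both peaks and no such letters. Of the 107 promoters covered by peaks of both antibodies, 29.9% held forkhead letters.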
